A study of Homo sapiens with 4 samples.

Results

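The 10 genes described here encode non-kinesin proteins that build the mitotic spindle and divide the cell: ANLN, ECT2, RACGAP1, CIT, PRC1 and CEP55, which act in cytokinesis, and TPX2, ASPM, NUSAP1 and HMMR, which act in spindle assembly. They were chosen by name, with earlier results of these data known, and matched through their Ensembl identifiers. All 10 were found among the 20263 genes of the count table and passed the filter on low counts. Expression was measured by messenger RNA sequencing in MDA-MB-231, a human cell line from a triple-negative breast cancer, treated for 24 h with YW-LF (n = 2 libraries) or with the solvent dimethyl sulfoxide (DMSO, n = 2 libraries). YW-LF is named in the series title as a ribociclib derivative; ribociclib blocks CDK4 and CDK6, kinases that drive cells out of G1. The sources used here do not give its dose. All 4 libraries came from this line in serum-containing medium. The labels do not say that replicates were separate cultures, so the p-values reflect the spread between these samples only, and that spread may be technical.

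As cells enter mitosis, microtubules are nucleated and focused into a bipolar spindle, with the GTPase Ran releasing spindle assembly factors such as TPX2 around the chromosomes. After the chromosomes separate, antiparallel microtubules are bundled into a central spindle, centralspindlin recruits the exchange factor ECT2, and active RhoA builds the actomyosin ring that anillin scaffolds. The midbody left between the daughter cells is then cut by the ESCRT machinery, which CEP55 recruits. Most of these proteins are made late in the cell cycle, and promoters of such genes often carry the cell cycle genes homology region (CHR), which the DREAM and MYB-MuvB complexes bind, and CCAAT boxes, which NF-Y binds.

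Promoter windows of RefSeq (GRCh38.p14; 250 bases before to 50 after a transcript start, 300 in all) were found for 8 of the 10 genes, with 2 starts for ECT2. The CHR was searched as the letters TTTGAA on either strand, which read TTCAAA on the other, and it occurred in 9 of the 9 windows. The 2 ECT2 windows overlap and hold a match in common, so the 9 windows are not all separate promoters. Over all 35116 RefSeq windows the share with a match was 15.2%, and over the 21534 windows of genes in the count table it was 12.4%. Within 50 bases of the start, a distance chosen after the positions were seen, it occurred in 7 of the 9 windows, against 4.62% of all windows. The match nearest the start of each gene is shown with the bases around it, because this 6-letter element occurred in all of the windows. Each stretch is given 5′ to 3′ on the strand of the gene, and capitals mark the CHR letters.
ANLN: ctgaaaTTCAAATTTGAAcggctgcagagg
ECT2: agagcagcttagttTTTGAAtcggttgtgg
CIT: ccgttcctcgggTTCAAAcgcggcggcggg
PRC1: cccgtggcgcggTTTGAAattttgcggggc
CEP55: gcagccgcgggaTTCAAActcccggaagcg
ASPM: cggatgcaatcaTTCAAAtgaagcgccgcc
NUSAP1: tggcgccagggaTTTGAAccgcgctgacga
HMMR: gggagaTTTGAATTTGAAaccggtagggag

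These stretches lie at chr7:36389830-36389859 (plus strand) for ANLN, chr3:172750746-172750775 (plus) for ECT2, chr12:119877293-119877322 (minus) for CIT, chr15:90994538-90994567 (minus) for PRC1, chr10:93496597-93496626 (plus) for CEP55, chr1:197146765-197146794 (minus) for ASPM, chr15:41332882-41332911 (plus) for NUSAP1 and chr5:163460598-163460627 (plus) for HMMR. ANLN and HMMR each hold 2 CHR matches directly beside each other, in ANLN on opposite strands and in HMMR on the same strand. The first base of the match nearest the start lay at -20 in ANLN and in PRC1 and at -22 in HMMR. It lay at -3 in CEP55, at 11 in CIT, at 14 in NUSAP1, at 35 in ECT2 and at -113 in ASPM. Positions are counted from 1 at the first base of the RefSeq transcript, and GENCODE places the gene starts elsewhere. By the GENCODE positions the ANLN match and the whole PRC1 and HMMR windows lie inside the gene. The CIT match at 11 lies before the GENCODE start. Distances from the start therefore depend on the annotation. CCAAT boxes (CCAAT, or ATTGG on the other strand) occurred in 7 of the 9 windows, against 34.6% of all windows, and CHR and CCAAT letters occurred together in 7 of the 9, against 5.9%. ANLN and the second ECT2 window had no CCAAT match. GC boxes (GGGCGG, or CCGCCC on the other strand) were searched as well and occurred in 8 of the 9 windows. Their share was 45% over all windows and 56.8% over the windows of genes in the count table. The upstream bases of ASPM and CIT are shown as examples with several CCAAT boxes beside a CHR, with both motifs in capitals. They end at the first GENCODE exon for ASPM and at the RefSeq transcript start for CIT. The ASPM stretch is chr1:197146695-197146919 (minus strand) and the CIT stretch is chr12:119877321-119877570 (minus strand). A match of letters is a description and not a measured binding site.
ASPM: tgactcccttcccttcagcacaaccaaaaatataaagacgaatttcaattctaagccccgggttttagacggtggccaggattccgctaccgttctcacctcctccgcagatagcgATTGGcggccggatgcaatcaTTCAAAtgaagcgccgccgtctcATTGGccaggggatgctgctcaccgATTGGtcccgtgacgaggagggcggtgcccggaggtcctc
CIT: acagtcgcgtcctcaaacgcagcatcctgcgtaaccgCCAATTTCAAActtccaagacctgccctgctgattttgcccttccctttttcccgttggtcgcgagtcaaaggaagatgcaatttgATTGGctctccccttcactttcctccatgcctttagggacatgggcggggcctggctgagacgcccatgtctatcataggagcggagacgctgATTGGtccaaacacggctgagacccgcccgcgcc

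**Figure D1:**
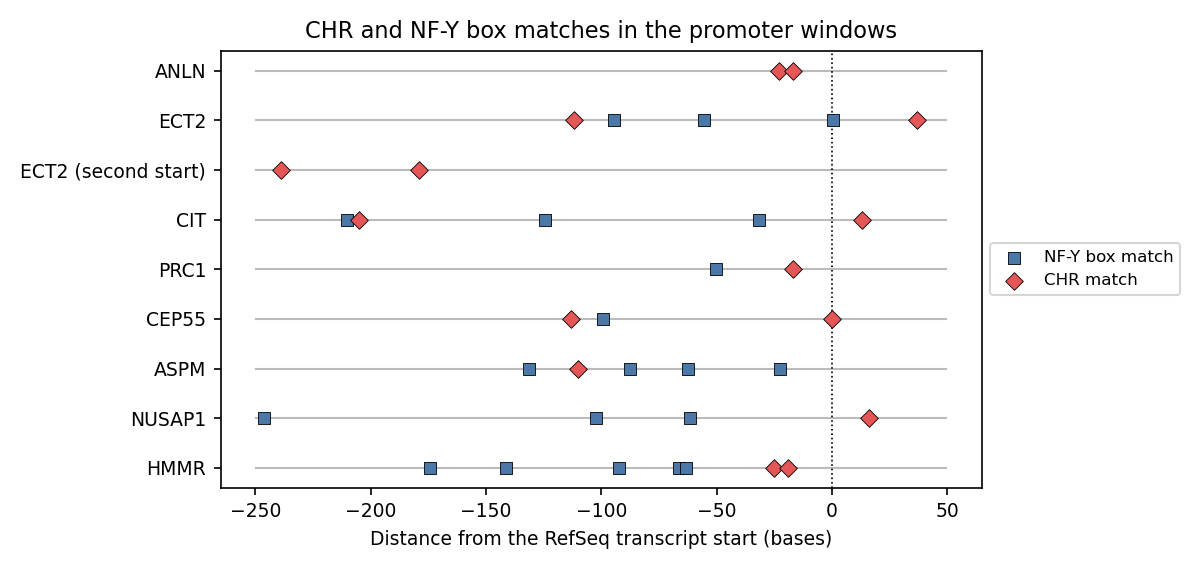
Position of CHR matches (diamonds) and of CCAAT, or NF-Y, box matches (squares) in the promoter windows of 8 of the genes, in bases from the RefSeq transcript start (dotted line). In 7 of the 9 windows a CHR match lies within 50 bases of the start. ASPM and the second ECT2 start have theirs farther upstream. The 2 ECT2 windows overlap, so the match at 35 in the first is the same site as that at -242 in the second.

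The libraries held 34774542 to 40218240 counts, and a single read amounts to 0.0199 to 0.0324 CPM (counts relative to library size, which is scaled here by the trimmed mean of M-values, TMM), so counting error is small for every member but HMMR, with 254 to 755 counts. The DMSO libraries correlated at r = 0.976 in log2 CPM across 13816 genes and the YW-LF libraries at 0.907 (genes are not independent replicates). YW-LF replicate 2 stood farthest from DMSO, at 0.865 and 0.859. Transcripts of the 13 mitochondrially encoded genes made up 8.68% and 21.7% of the DMSO counts and 3.14% and 6.58% of the YW-LF counts, and without them the median log2 fold change of the 10 genes was -1.08, as with them. Of the 5 markers of the line, VIM stood at 2122 to 4154 CPM, CD44 at 400.2 to 569 and AXL at 535 to 1785. EGFR was at 870 and 1057 CPM in DMSO and at 392 and 129 in YW-LF, and CAV1 was at 575 in both DMSO libraries and at 134 and 320 in YW-LF. Of the 5 markers that should be low or absent in the line, CDH1, ESR1 and PGR reached at most 0.26, 0.66 and 1.73 CPM, but EPCAM was at 5.53 to 9.35 CPM and ERBB2 at 30.2 to 71.9. Of 3 blood cell markers (PTPRC, CD3E and LYZ) CD3E was at 0 in all libraries, with a summed level of 0.39 to 0.64 CPM in DMSO and 0.097 to 0.78 in YW-LF. Of the 5 fibroblast markers COL1A2 and DCN were at 0, with sums of 7.24 and 8.04 CPM in DMSO and 7.12 and 1.26 in YW-LF. COL1A1 made up most of these sums in DMSO (6.97 and 7.92 CPM) and in YW-LF replicate 1 (6.55). In YW-LF replicate 2 it stood at 0.49 CPM.

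All 10 genes stood lower in both YW-LF libraries than in both DMSO libraries, where 27.8% of the 13816 genes tested did so and 28% stood higher in both. Their log2 fold changes ran from -2.43 (ANLN) to -0.62 (HMMR) with a median of -1.08, against a median of 0.063 over all genes tested. Their summed counts made up 0.285% and 0.225% of the DMSO libraries and 0.121% and 0.110% of the YW-LF libraries. Fewer cells in mitosis and less of these messages per cell cannot be told apart in bulk RNA. Plain CPM, without TMM scaling, left 9 of the 10 genes without overlap: HMMR then stood at 18.8 and 16.3 in DMSO and at 18.8 and 6.89 in YW-LF.

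No member passed the quasi-likelihood test of edgeR after Benjamini-Hochberg adjustment over all genes at 0.05; the test called 0% of genes lower, and its lowest adjusted p over all genes was 0.117. At an unadjusted p under 0.05, 6 of the 10 were lower (ANLN, NUSAP1, CIT, CEP55, ASPM and RACGAP1), against 9.01% of all genes tested. DESeq2 called 3 of the 10 lower, ANLN (adjusted p = 8.6e-06), NUSAP1 (0.012) and CIT (0.017), where it called 4.26% of genes lower. By limma-voom 0 of the 10 passed, and 0% of genes were called lower. Without a count filter edgeR called ANLN alone (adjusted p = 0.040), where 0.718% of genes were called lower, and limma-voom with sample quality weights did the same (0.024; 0.405% of genes).

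**Figure D2:**
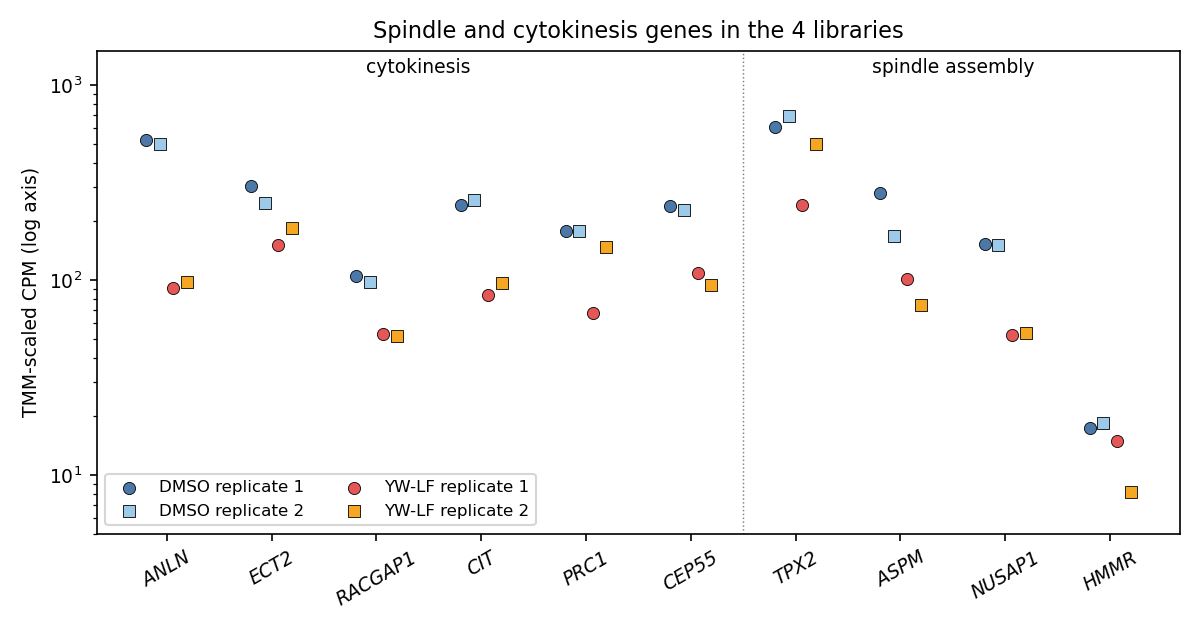
TMM-scaled CPM (log axis) of the 10 genes in each library, circles for replicate 1 and squares for replicate 2, blue for DMSO and red or orange for YW-LF. ANLN shows the widest gap between the groups, and in HMMR YW-LF replicate 1 (15.02) lies close under the DMSO libraries (17.5 and 18.4).

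Among the cytokinesis genes, ANLN had the lowest fold change. It encodes anillin, the scaffold that links RhoA, actin, septins and myosin at the cleavage furrow (ENSG00000011426, chromosome 7, 36389806 to 36453791 in GRCh38, as for all positions of genes here). Its level was 523 and 497 CPM in DMSO replicates 1 and 2 and 91.1 and 98.1 CPM in YW-LF replicates 1 and 2. The YW-LF libraries differed from each other by less than the distance to DMSO, and the gene was 5.39-fold lower (log2 fold change -2.43, SE 0.41, edgeR adjusted p = 0.121). KIAA0895, which overlaps ANLN on the opposite strand, had 216 to 813 counts against 3032 to 19580 for ANLN.

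ECT2, the exchange factor that activates RhoA at the cell equator (ENSG00000114346, chromosome 3, 172750682 to 172821474), stood at 305 and 248 CPM in DMSO and at 151 and 186 CPM in YW-LF. The groups did not overlap, but its log2 fold change of -0.72 (SE 0.39, edgeR adjusted p = 0.340) had a 95% interval from -1.66 to 0.22, which includes no difference. RACGAP1, the GTPase-activating subunit of centralspindlin (ENSG00000161800, chromosome 12, 49976923 to 50033136), stood at 105 and 97.8 CPM in DMSO and at 53.0 and 51.6 CPM in YW-LF. Both groups were tight, and the log2 fold change was -0.95 (SE 0.34, edgeR adjusted p = 0.198). AQP6, on the opposite strand at this locus, had at most 6 counts.

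CIT encodes citron kinase, which organises the midbody (ENSG00000122966, chromosome 12, 119685790 to 119877291). It stood at 244 and 258 CPM in DMSO and at 83.4 and 96.3 CPM in YW-LF, a log2 fold change of -1.48 (SE 0.37, edgeR adjusted p = 0.130). PRC1, the protein that bundles antiparallel microtubules of the central spindle (ENSG00000198901, chromosome 15, 90966038 to 90995629), stood at 178 and 179 CPM in DMSO but at 68.0 and 148 CPM in YW-LF. Here the treated libraries lay far apart, with replicate 2 near the controls, and the log2 fold change was -0.72 (SE 0.47, edgeR adjusted p = 0.413, 95% interval -1.85 to 0.40). It was -0.27 once YW-LF replicate 1 was left out and -1.41 once YW-LF replicate 2 was. CEP55, which brings ESCRT proteins to the midbody for abscission (ENSG00000138180, chromosome 10, 93496632 to 93529092), stood at 240.3 and 229.7 CPM in DMSO and at 109 and 94.2 CPM in YW-LF. The gap between the groups exceeded the spread within each, and the log2 fold change was -1.21 (SE 0.37, edgeR adjusted p = 0.159).

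Of the spindle assembly genes, NUSAP1 differed with the least spread. It encodes a protein that binds and bundles spindle microtubules (ENSG00000137804, chromosome 15, 41332694 to 41381050). Its level was 152.2 and 151.9 CPM in DMSO and 52.3 and 53.2 CPM in YW-LF, and the log2 fold change was -1.53 (SE 0.35, edgeR adjusted p = 0.121). Replicates agreed within 1 CPM in each group, closer than for any other member relative to its level. ASPM, a spindle pole protein known for its part in brain growth (ENSG00000066279, chromosome 1, 197084128 to 197146694), stood at 279 and 168 CPM in DMSO and at 102 and 74.5 CPM in YW-LF. The DMSO libraries were the ones that differed here. Its log2 fold change of -1.34 (SE 0.43, edgeR adjusted p = 0.174) was -0.92 once DMSO replicate 1 was left out and -1.68 once DMSO replicate 2 was.

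TPX2, which activates Aurora A and nucleates spindle microtubules (ENSG00000088325, chromosome 20, 31739271 to 31801805), stood at 608 and 694 CPM in DMSO and at 242 and 500.4 CPM in YW-LF. As for PRC1, YW-LF replicate 2 was the higher treated library. The log2 fold change of -0.81 (SE 0.52, edgeR adjusted p = 0.409, 95% interval -2.05 to 0.43) was -0.38 once YW-LF replicate 1 was left out and -1.44 once YW-LF replicate 2 was. HMMR encodes RHAMM, a hyaluronan receptor that also binds spindle microtubules (ENSG00000072571, chromosome 5, 163460203 to 163491945). It was the least abundant member, at 17.5 and 18.4 CPM in DMSO and at 15.02 and 8.22 CPM in YW-LF, and here YW-LF replicate 2 was the lower treated library. Its log2 fold change of -0.62 (SE 0.45, edgeR adjusted p = 0.467, 95% interval -1.71 to 0.46) was -1.13 once YW-LF replicate 1 was left out and -0.27 once YW-LF replicate 2 was. GENCODE 29 places antisense genes within CIT, PRC1 and HMMR, and no source used here gives the strand setting of the counting, so reads of such pairs cannot be told apart. Other genes overlap on the same strand, among them AC087721.2 at NUSAP1, AC068831.7 at PRC1 and the pseudogene SEPT14P12 at ASPM. For these the strand alone could not separate reads, and they have no row among the counts.

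**Figure D3:**
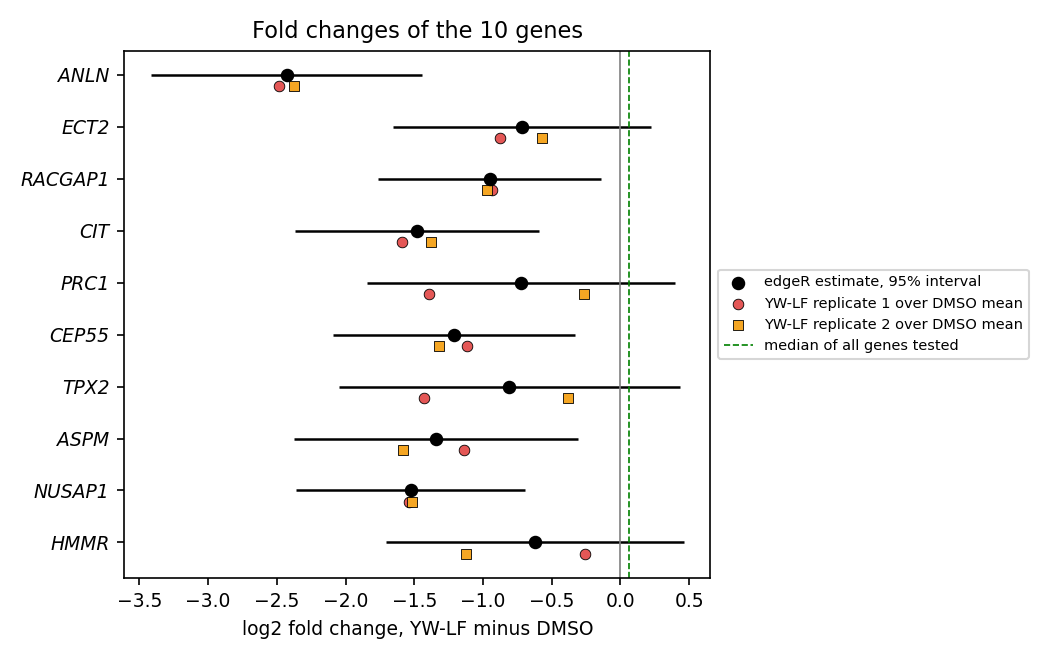
Log2 fold change of each gene (black point, edgeR estimate; line, 95% interval), with each YW-LF library against the DMSO mean (red circle, replicate 1; orange square, replicate 2) and the median of all genes tested (dashed). The intervals of ECT2, PRC1, TPX2 and HMMR cross 0, and the treated libraries stand far apart in PRC1, TPX2 and HMMR.

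Leaving out a library changed which members were called, since the remaining pair then sets the spread. Without YW-LF replicate 1, edgeR called 7 of the 10 lower (ANLN, RACGAP1, CIT, CEP55, ASPM, NUSAP1 and HMMR; lowest adjusted p = 9.0e-04), where 20.7% of all genes were called lower. Without YW-LF replicate 2 it also called 7 (ANLN, RACGAP1, CIT, PRC1, CEP55, TPX2 and NUSAP1; lowest adjusted p = 0.0061), where 10.2% of genes were. ECT2 was called in neither. Without DMSO replicate 1 or DMSO replicate 2 it called 0 of the 10 (lowest adjusted p = 0.299 and 0.341), where 0.194% and 0.111% of genes were called lower. The median log2 fold change of the 10 genes ranged from -1.28 to -0.91 over these fits.

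The genes also differed among themselves. Each gene's share of the summed counts of the 10 needs no scaling between libraries. ANLN made up 19.7% and 19.5% of that sum in DMSO and 9.43% and 7.49% in YW-LF. ECT2 went from 11.5% and 9.77% to 15.6% and 14.2%, so that it held the larger share of this sum in both treated libraries, where ANLN had held the larger share in both controls. The shares of CIT and NUSAP1 were also lower in both YW-LF libraries than in both DMSO libraries, at 9.19% and 10.2% against 8.63% and 7.35% for CIT and at 5.74% and 5.97% against 5.42% and 4.06% for NUSAP1. For the other 6 genes the groups overlapped. TPX2 took 22.9% and 27.3% in DMSO and 25.1% and 38.2% in YW-LF. An exact two-sided permutation test gave p = 0.333 for ANLN, ECT2, CIT and NUSAP1, the smallest p that 2 against 2 libraries allow, so no difference in share could pass at 0.05.

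**Figure D4:**
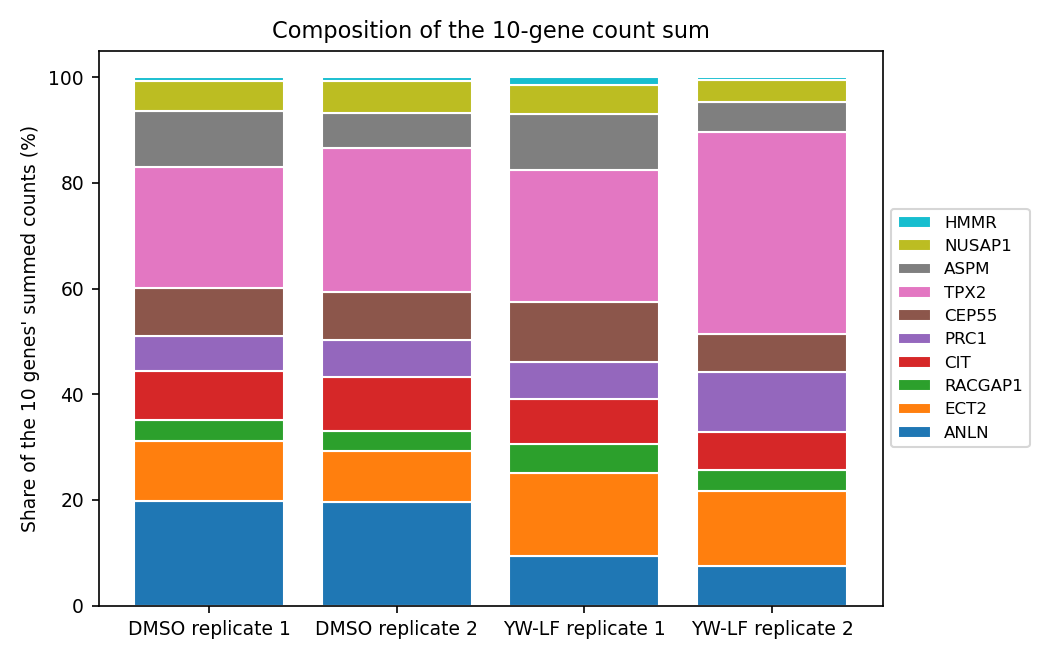
Share of each gene in the summed counts of the 10 genes, in percent, for each library. ANLN takes 19.5% to 19.7% in DMSO and 7.49% to 9.43% in YW-LF, and TPX2 reaches 38.2% in YW-LF replicate 2.

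Levels between genes were compared as CPM per kilobase of annotated exon (GENCODE 29, union of the basic transcripts). TPX2 was the highest of the 10 in each library, at 169 and 193 CPM per kb in DMSO and 67.2 and 139 in YW-LF. ASPM and HMMR ranked 9 and 10 in each library, with HMMR at 5.32 and 5.59 in DMSO and 4.57 and 2.502 in YW-LF. ANLN ranked 2 in both DMSO libraries, at 109 and 104 CPM per kb, and 5 and 6 in YW-LF replicates 1 and 2, at 19.03 and 20.5. CEP55 followed it in DMSO, at 91.1 and 87.1, and held 41.1 and 35.7 in YW-LF. ECT2 (66.9 and 54.5 in DMSO) and NUSAP1 (62.0 and 61.9) did not differ beyond their spread, nor did CIT (28.0 and 29.7) and RACGAP1 (29.4 and 27.4). In YW-LF the ranges of CEP55 and ECT2 (33.1 and 40.8) overlapped, and PRC1, at 16.3 and 35.6, overlapped with ECT2, NUSAP1 and ANLN. PRC1 fell just short of CEP55, at 35.6 against 35.7 in YW-LF replicate 2, which is too close to call a difference.

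The spread between replicates differed from gene to gene. The log2 ratio of YW-LF replicate 2 over replicate 1 had an SD of 0.61 over the 10 genes and of 1.09 over 10809 genes with a mean of at least 5 CPM, and the same ratio in DMSO had SDs of 0.26 and 0.46. In YW-LF it was 1.13 for PRC1 and 1.05 for TPX2, -0.87 for HMMR and -0.45 for ASPM, and between -0.20 and 0.30 for the other 6.

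The 6 lists of partner genes, also chosen with earlier results of these data known, were described in the same way. They are given by the share of their members that stood apart, to be read against the 27.8% of all genes that stood lower in both YW-LF libraries and the 28% that stood higher in both. In edgeR 0 of their 101 genes passed over all genes tested, and at an unadjusted p under 0.05 there were 28 lower and 7 higher, where 9.01% and 11.5% of all genes were. Of 12 central spindle partners, which travel with PRC1 and centralspindlin at the midzone, 11 stood lower in both libraries and 0 higher, with a median log2 fold change of -1.13. KIF20A, the kinesin that carries the chromosomal passenger complex to the midzone, stood at 176 and 179 CPM in DMSO and 42.7 and 23.5 CPM in YW-LF, which is -2.42 (SE 0.44) as log2 fold change. INCENP, the scaffold of that complex, was at -1.90 (SE 0.37) and PLK1, the mitotic kinase that prepares RACGAP1 for binding to ECT2, at -1.68 (SE 0.38). DESeq2 called 4 of the 12 lower and 0 higher, against 4.26% and 5.77% of all genes it tested.

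Of 22 other mitotic spindle-associated proteins, 19 stood lower in both libraries and 1 higher, with a median of -0.83. GTSE1, a microtubule-associated protein of G2 and mitosis, stood at 89.3 and 99.5 CPM in DMSO and at 22.9 and 32.8 CPM in YW-LF (-1.76, SE 0.38). DLGAP5 (HURP), which stabilises kinetochore microtubules, was at -1.74 (SE 0.39) and CDCA3, a trigger of mitotic entry, at -1.86 (SE 0.43). DESeq2 called 5 of the 22 lower and 0 higher, where it called 4.26% of all genes it tested lower and 5.77% higher. The exception was CLTC, the clathrin heavy chain, at 0.57, which was named after its value was seen.

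The general machinery that these proteins use showed other patterns. Of 22 midbody and ESCRT genes, the abscission machinery downstream of CEP55, 3 stood lower in both libraries and 10 higher, with a median log2 fold change of 0.32. That median was 0.56 in the fit that left out YW-LF replicate 1 and 0.14 in the fit that left out YW-LF replicate 2. CHMP1B, an ESCRT-III subunit, stood at 48.6 and 43.3 CPM in DMSO and at 102 and 376.7 CPM in YW-LF (2.38, SE 0.65), so the treated libraries were far apart. The ESCRT-III subunits CHMP7 and CHMP5 were at -1.12 (SE 0.38) and 0.88 (SE 0.36). DESeq2 called 1 of the 22 higher and 0 lower, where it called 5.77% of all genes it tested higher and 4.26% lower. Of 19 genes of the contractile ring and RhoA signalling, 10 stood lower in both libraries and 3 higher, with a median of -0.33 that moved to -0.92 when YW-LF replicate 2 was left out and to -0.55 when DMSO replicate 2 was. SEPTIN9, a septin filament subunit, was at -1.40 (SE 0.36), ROCK2, a kinase that RhoA activates, at -1.53 (SE 0.40) and ARHGEF2, a microtubule-bound exchange factor for RhoA, at 1.52 (SE 0.40). DESeq2 called 5 of the 19 lower and 2 higher.

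Ran itself, which drives the release of TPX2 near chromosomes, stood at 241 and 235 CPM in DMSO and at 116 and 447 CPM in YW-LF, so 1 treated library lay below both controls and the other above them. Its log2 fold change of 0.24 (SE 0.64) averages these opposite values, and the gene was named outside the rule, after its value was seen. Of the 8 Ran pathway genes 3 stood lower in both libraries and 0 higher, where 27.8% and 28% of all genes tested did. Their median of -0.52 was -0.15 once YW-LF replicate 1 was left out and -0.97 once YW-LF replicate 2 was. KPNB1, the importin that holds TPX2 inactive together with importin alpha, was at -1.15 (SE 0.44), RANGAP1, which stimulates GTP hydrolysis by Ran, at -0.65 (SE 0.38) and RCC1, its exchange factor, at -0.49 (SE 0.37). Of 18 gamma-tubulin ring and augmin genes, which nucleate and branch microtubules, 7 stood lower in both libraries and 7 higher, with a median of 0.061. Its sign turned when YW-LF replicate 2 (-0.38) or DMSO replicate 2 (-0.067) was left out, and it was 0.30 with YW-LF replicate 1 left out and 0.15 with DMSO replicate 1 left out. With all 4 libraries kept, the median was also below 0 in limma-voom (-0.056) and in limma-voom with sample quality weights (-0.072), so it has no stable sign. TUBG1, gamma-tubulin, was at -1.83 (SE 0.41) and TUBGCP5, a ring subunit, at -1.45 (SE 0.40). MZT2B, a small ring subunit, stood at 25.8 and 21.1 CPM in DMSO and at 37.7 and 259 CPM in YW-LF (2.66, SE 0.85), so the size of its difference rests largely on YW-LF replicate 2. Its value is also uncertain because its near copy MZT2A may share reads. DESeq2 called 0 Ran pathway genes in either direction, and 2 lower and 1 higher among the 18 gamma-tubulin and augmin genes. Over all genes it tested, the shares were 4.26% lower and 5.77% higher.

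**Figure D5:**
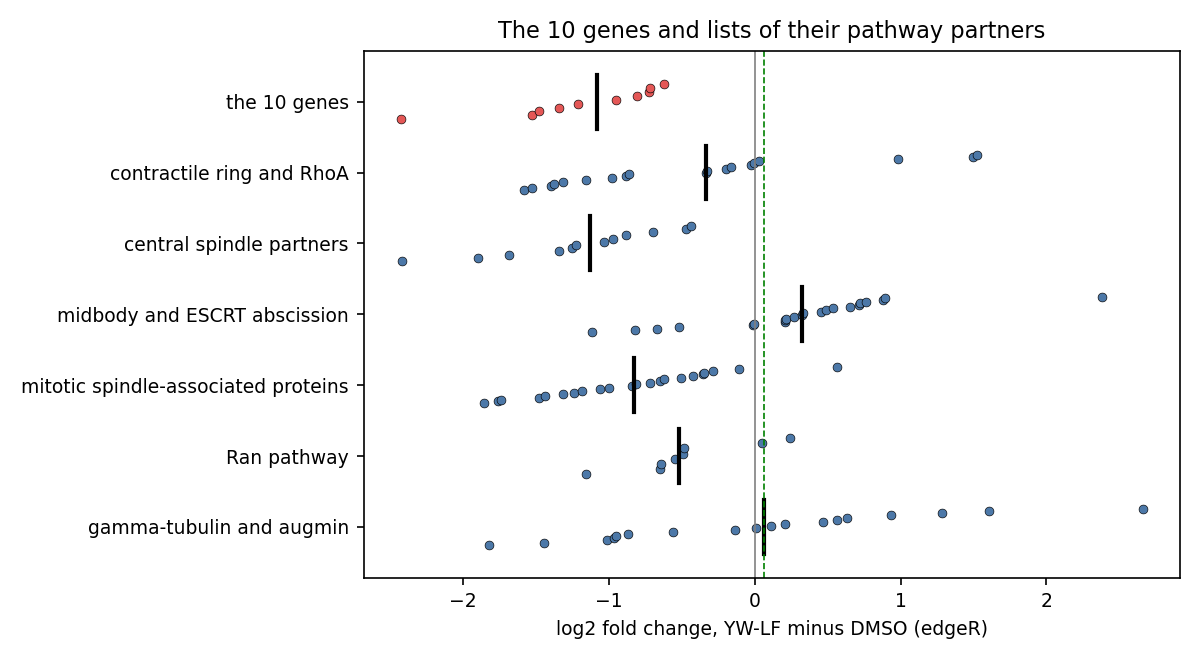
Log2 fold change (edgeR, YW-LF minus DMSO) of the 10 genes (red) and of the genes in 6 lists of pathway partners (blue), with the median of each list as a bar and the median of all genes tested as a dashed line; vertical offsets only separate the points. The 10 genes, the central spindle partners and the spindle-associated proteins lie mostly below 0, with medians of -1.08, -1.13 and -0.83, and the ESCRT genes have a median of 0.32.

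CHR letters were also counted in the promoter windows of these lists. The share to read them against was 15.2% of all RefSeq windows and 12.4% of the windows of genes in the count table. CHR letters occurred in 14 of 20 windows (70%) of the spindle-associated proteins and in 9 of 14 (64.3%) of the central spindle partners. They occurred in 3 of 9 (33.3%) for the Ran pathway and 2 of 21 (9.52%) for the gamma-tubulin and augmin genes. For the ESCRT genes it was 1 of 17 (5.88%) and for the contractile ring list 1 of 40 (2.5%). The lists were chosen with results of these data known and some genes have several windows, so these counts are a description.

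Among 10799 other genes with a mean of at least 5 CPM, those whose centred log2 CPM over the 4 libraries lay closest to the median profile of the 10 were AP3M1 (mean absolute distance 0.014), an adaptor subunit of vesicle traffic, GRAMD2B (0.026), PLEKHG3 (0.033), NCAPD2 (0.035), a condensin subunit, and KPNA3 (0.042), an importin alpha. The members lay at distances from 0.051 (CEP55) to 0.62 (ANLN). Profiles over 4 libraries are short, and the likeness is a description.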

How the data were processed

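Per the values, the authors deposited raw gene-level read counts as whole numbers; aligner, counter and annotation are named in no source used here. Per the submitters' processing notes the builds were GRCm38 and mm10, which are mouse builds, but the 20263 rows are human Ensembl genes and were used as such. Symbols matched 20148 rows; the other rows (0.102% of counts) stayed in the tests. A second deposited table held the same DMSO counts (40526 identical values). The 2 further columns of per-sample values match no label and were not used.

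Genes were kept by filterByExpr (13816 genes), scaled by TMM and tested with edgeR 4.0.16 (quasi-likelihood F-test, R 4.3.3) over all 4 libraries, with Benjamini-Hochberg adjustment at 0.05; the SE is the log2 fold change divided by the square root of F. Log2 CPM used a prior count of 2. Alternatives were DESeq2 1.42.0, limma-voom (limma 3.58.1), other scalings and filters, a replicate block and leaving out each library; sample quality weights and removal of mitochondrially encoded genes were chosen after seeing the data. The edgeR test was checked on simulated counts. With the spread of these data it recovered 2% of genes simulated at an absolute log2 fold change of 1 and 39% at 2. At a low spread it recovered 100% of both. With the spread seen here, a gene that was not called may therefore still differ. Replicate counts differed by more than sampling noise (chi-square over degrees of freedom 246 in DMSO and 570 in YW-LF). Totals were 34774542, 37754168, 40218240 and 36886858 counts (DMSO 1, 2, YW-LF 1, 2). Named genes are all 10 members, the 3 of lowest p in each list, and the 5 of nearest profile (the median profile was centred again to break ties). The members and lists were chosen with earlier results of these data known. Gene positions are from GENCODE 29 (GRCh38), matched by identifier, and promoters from RefSeq (GRCh38.p14). One marker gene of the planned list is not reported here.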

Additional observations from a re-analysis of the deposited data

How the results depend on the processing

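Each of the 10 genes kept a negative log2 fold change in all 14 fits, and 9 or 10 of them stood lower in both YW-LF libraries than in both DMSO libraries. The fits draw on the same 4 libraries and several use the same scaled values, so they are not independent checks. The counts of genes past the threshold depended on the method: 0 lower and 0 higher in edgeR, 616 and 835 with DESeq2, 120 and 155 without a count filter, and 56 and 175 in limma-voom with sample quality weights. With 1 library left out, where a lone sample is assumed to vary like the other group, edgeR called 16 to 2919 genes lower and 46 to 2963 higher. In those fits the median log2 fold change ranged from -1.28 to -0.91 for the 10 genes, -1.36 to -1.02 for the central spindle partners, -0.91 to -0.70 for the spindle-associated proteins, -0.92 to -0.28 for the contractile ring list, -0.97 to -0.15 for the Ran pathway, 0.14 to 0.56 for the ESCRT genes and -0.38 to 0.30 for the gamma-tubulin and augmin genes. Leaving out YW-LF replicate 1 moved the median of all genes by -0.12. With library size as the only scaling the medians were 0.40 for the ESCRT genes and -0.77 for the spindle-associated proteins. The cause of these shifts was not tested.

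With the replicate number as a block, edgeR called 145 genes lower (1.05%) and 186 higher, among them ANLN (adjusted p = 0.031) and no other of the 10. The gamma-tubulin and augmin median was -0.045 in that fit and the log2 fold change of RAN -0.062, both with the opposite sign to the fit without the block. The labels tie the numbers to nothing, so whether same-numbered libraries were paired is not known. The deviations of same-numbered libraries correlated at r = 0.037 across genes. This is a single value from 2 libraries per group and cannot decide the question. Among the 10 genes depth was lowest for HMMR, with 254 counts in YW-LF replicate 2. The edgeR SE was nevertheless larger for PRC1 (0.47) and TPX2 (0.52) than for HMMR (0.45).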
